A study of Mus musculus with 42 samples.

Results

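Genes of the Notch pathway were followed through RNA-seq read counts of mouse bone-marrow-derived macrophages (BMDM), which are made by culturing marrow until its precursors mature. The 8 genes, Jag1, Notch1, Notch2, Adam10, Adam17, Rbpj, Maml1 and Hes1, were chosen by name, and each matched 1 of the 37310 gene rows of the count table. They were listed with levels of these same libraries already known, so their calls below describe them and support nothing further. The labels gave 14 groups of 3 libraries each, made of 2 genotypes, WT and KO, with Control cells at 0 h, and Control, palmitate and LPS cells at 2 h and at 24 h. Per the study, KO marks mice with loxP-flanked Irf5 (interferon regulatory factor 5, a transcription factor) crossed to Cre driven by the Lyz2 (LysM) gene of myeloid cells, WT marks wild-type mice, all mice were male, and the floxed strain was C57BL/6. Palmitate is a saturated fatty acid used to load cells with lipid, LPS is the bacterial lipopolysaccharide that activates macrophages through TLR4, and Control cells received neither. All cells shared the growth in medium conditioned by L929 cells, which secrete the macrophage growth factor.

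Notch signalling passes between touching cells. A ligand of the Jagged or Delta-like family on the sending cell binds a Notch receptor on the receiving cell, ADAM proteases and then the gamma-secretase complex cut the receptor, and the freed intracellular part enters the nucleus, joins the DNA-binding protein RBPJ and recruits Mastermind-like coactivators to genes such as Hes1. In macrophages the pathway is known to be engaged by Toll-like receptor ligands and to shape inflammatory gene expression. ADAM17 is also the protease that releases tumour necrosis factor from the cell surface, so neither protease serves Notch alone.

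The depth was 2848793 to 7743442 counts per library, with a median of 5625399, and levels are given as CPM, the counts of a gene as a share of the library's TMM-scaled total. Irf5 itself was not lower in the libraries labelled KO. Its group means were 278 to 412 CPM in them and 220 to 380 CPM in those labelled WT. Within every condition the KO mean was the higher, for example 305 against 220 CPM at Control 0 h and 286 against 278 CPM at palmitate 2 h. The genotype is therefore used here only as a label. The counts per gene do not show whether the floxed exons are missing. The 7 macrophage markers summed to 4820 to 9010 CPM in every library. The 6 fibroblast or stroma markers summed to 0.380 to 314 CPM, almost all from the collagen genes Col1a1, Col1a2 and Col3a1, with Dcn and Pdgfra at 5 counts or fewer in every library. They were uneven within several groups and were above 40 CPM in all 9 KO Control libraries, as given below where they touch a result. In bulk RNA, fewer cells of a type and less RNA per cell cannot be told apart.

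Promoter windows from RefSeq (build GRCm38.p6, 250 bases before to 50 after a start site) matched 7 of the 8 genes, with Rbpj at 2 start sites, giving 8 windows. Hes1 was not among the windows. The bases before the start are shown for Jag1 and for the upstream start of Rbpj, the pair of genes that rose most after 2 h of LPS. Capitals mark the RBPJ core TGGGAA, read on either strand. The Jag1 stretch is chr2:137116521-137116770, minus strand, and the Rbpj stretch is chr5:53590096-53590345, plus strand.
Jag1: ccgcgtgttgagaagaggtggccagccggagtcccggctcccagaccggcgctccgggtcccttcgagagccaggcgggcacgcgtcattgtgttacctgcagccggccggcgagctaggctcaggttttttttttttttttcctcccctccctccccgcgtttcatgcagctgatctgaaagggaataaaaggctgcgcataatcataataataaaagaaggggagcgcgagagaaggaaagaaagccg
Rbpj: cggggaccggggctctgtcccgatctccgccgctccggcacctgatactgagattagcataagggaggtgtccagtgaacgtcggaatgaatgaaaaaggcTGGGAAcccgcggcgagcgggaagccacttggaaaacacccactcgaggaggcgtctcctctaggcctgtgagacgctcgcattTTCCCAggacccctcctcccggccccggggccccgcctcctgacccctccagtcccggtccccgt
The Rbpj window held the core at 2 places, 149 and 65 bases before the start, counted at the first base of each match. The window of the other Rbpj start overlaps this one and held the nearer of these matches only. The other 6 genes held none in 300 bases. Over all 32851 windows of this length 25.6% held the core, and 3.79% held it at 2 or more places. The NF-kappaB form GGANTTNCC, held by 3.95% of all windows, and the AP-1 form TGANTCA, held by 7.81%, were searched on both strands and were in none of the 8 windows. The 3 patterns could overlap each other, but no matches did. A match is a description of letters and says nothing of binding, and the absence of a match says nothing of the factor. The member windows were rich in CpG, with 22 to 41 CpG each against a median of 7 over all windows.

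Levels of different genes were compared per kilobase of merged exon, as the mean over all 42 libraries. The proteases and Notch2 were highest, with Adam10 at 46.9, Adam17 at 37.6 and Notch2 at 35.4 CPM per kb. Jag1 followed at 22.9, Notch1 at 15.8, Rbpj at 11.6 and Maml1 at 8.84 CPM per kb. Hes1 stood apart at 0.195 CPM per kb. In CPM, the 7 genes other than Hes1 lay between percentile 68.9 (Maml1) and percentile 97.3 (Notch2) of the 11624 genes tested. Jag1 was the most variable of them, with group means from 52.4 CPM (WT LPS 24 h) to 419 CPM (KO LPS 2 h). The ratio of the highest to the lowest group mean was 2.82 for Rbpj, 2.11 for Notch1, 1.80 for Adam10, 1.74 for Notch2, 1.59 for Adam17 and 1.43 for Maml1.

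**Figure D1:**
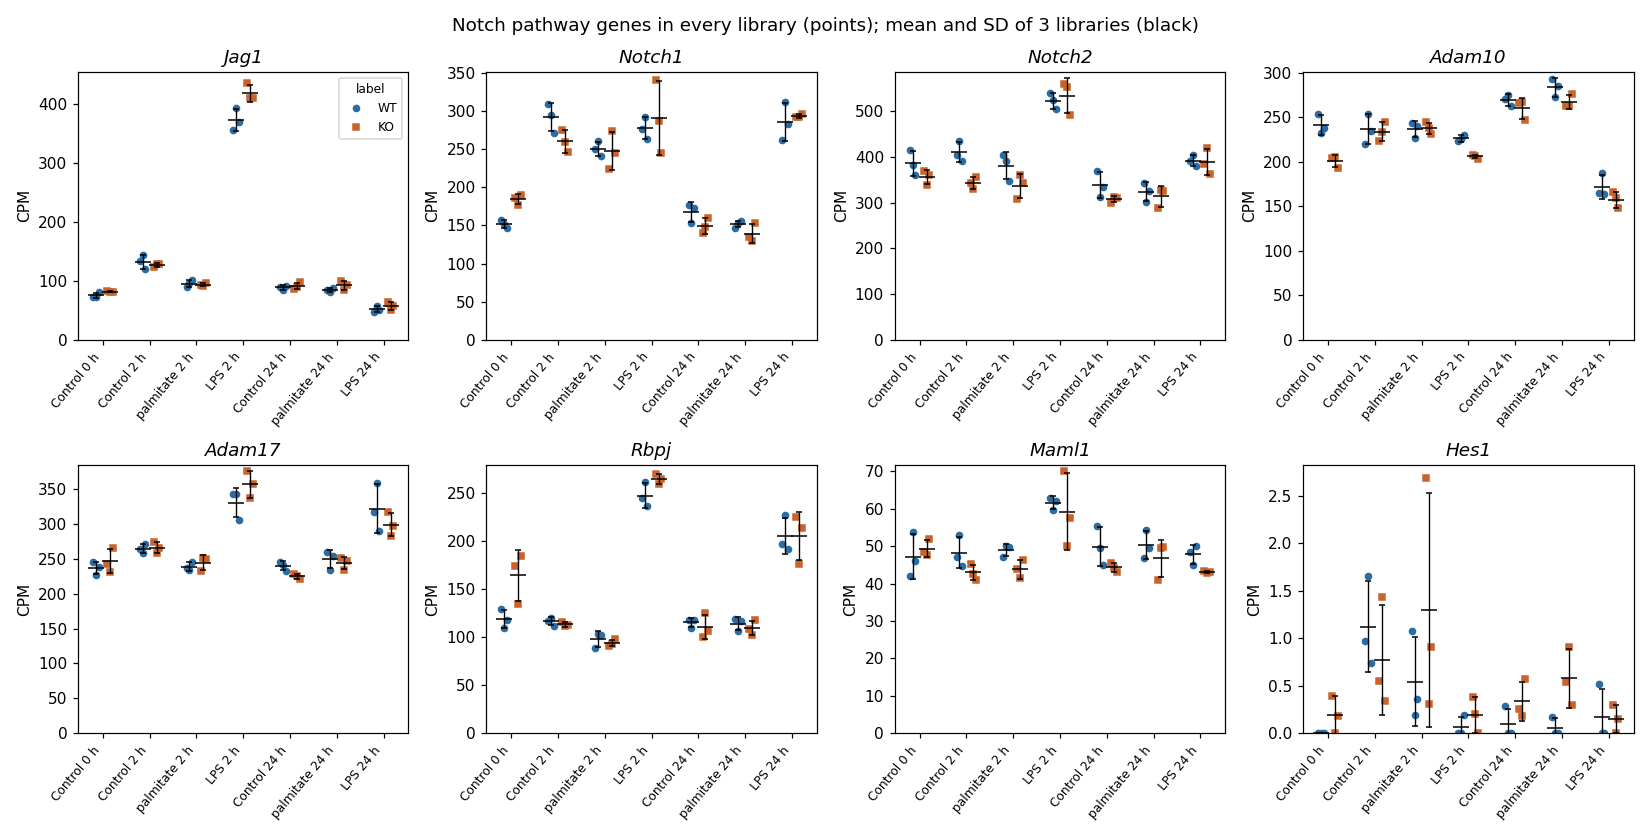
CPM of the 8 genes (vertical axes, starting at 0) in each of the 42 libraries by treatment and time (horizontal axes), circles for WT and squares for KO, with the mean and SD of 3 libraries in black. Jag1 peaks at 357 to 436 CPM in the LPS 2 h libraries and is lowest at 47.8 to 64.9 CPM at LPS 24 h, while Hes1 never exceeds 2.68 CPM.

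The first question was what LPS did to the pathway at an early and a late time. The ligand Jag1 and the nuclear factor Rbpj rose at 2 h, and at 24 h Jag1 had fallen under its Control while Rbpj was still raised. Notch1 rose at 24 h and was not called at 2 h, and the proteases split, with Adam17 higher at both times and Adam10 lower at 24 h. Over the 4 comparisons, each against the matching Control libraries, the 7 genes tested gave 23 calls of 28, 18 higher and 5 lower, and each gene was called at least in 1 of them. At 2 h, 5 genes were called in WT and 6 in KO, where 23.1% and 23.9% of all genes tested were called. At 24 h, 6 were called in each genotype, where 39.5% (WT) and 40.9% (KO) of all genes were called. Of the 11624 genes tested, 1628 were called higher and 1058 lower in WT at 2 h, 1711 and 1065 in KO at 2 h, 2280 and 2314 in WT at 24 h and 2310 and 2440 in KO at 24 h. The libraries of LPS and Control did not overlap in 35.2% (WT) and 34.1% (KO) of all genes at 2 h and in 48.1% and 50.2% at 24 h. A call is an adjusted p under 0.05 from edgeR's quasi-likelihood test with Benjamini-Hochberg adjustment over all genes tested. The median log2 fold change of the 7 genes was 0.35 (WT) and 0.44 (KO) at 2 h and 0.21 (WT) and 0.34 (KO) at 24 h, against -0.01 over all genes in each of the 4.

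**Figure D2:**
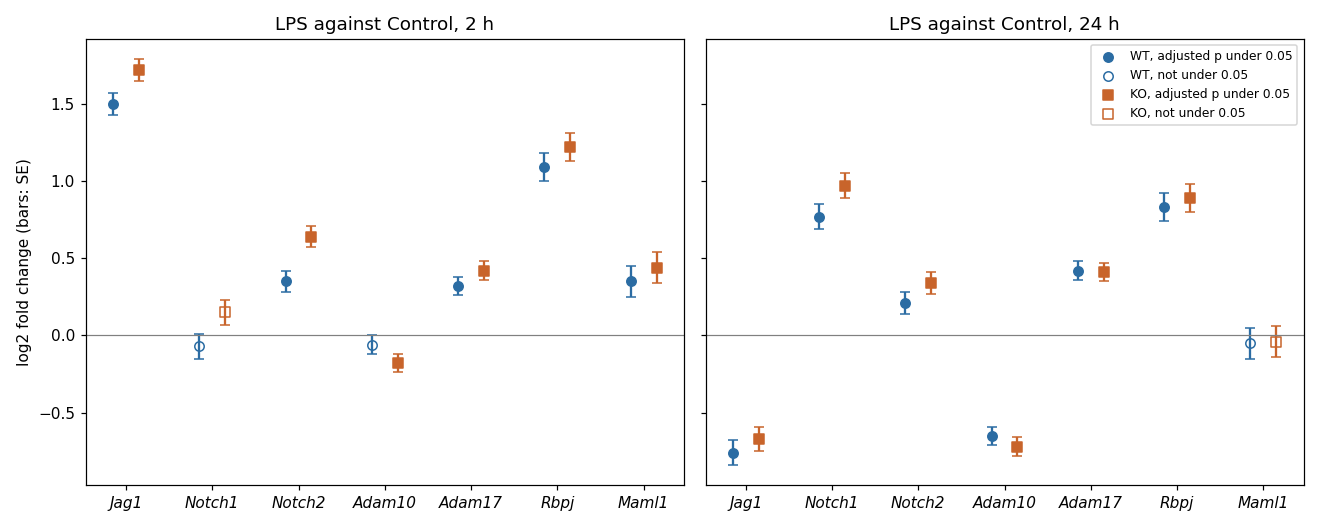
Log2 fold change of LPS over Control (vertical axis, bars are SE) for the 7 genes tested (horizontal axis) at 2 h and at 24 h, circles for WT and squares for KO, filled where the adjusted p was under 0.05. Jag1 goes from 1.50 and 1.72 at 2 h to -0.76 and -0.67 at 24 h, Notch1 from near 0 to 0.77 and 0.97.

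Jag1 encodes Jagged1, a membrane-bound Notch ligand (chr2:137081456-137116644, minus strand, GENCODE vM21 on GRCm38, as for the positions below). In WT, its level was 134, 144 and 120 CPM in Control 2 h and 357, 395 and 369 CPM in LPS 2 h. In KO, it was 123, 129 and 129 CPM in Control and 436, 411 and 411 CPM in LPS 2 h. No LPS library overlapped the Controls. LPS raised Jag1 2.83-fold in WT, or 1.50 on the log2 scale with an SE of 0.07 (adjusted p = 2.35e-23, edgeR), and 3.29-fold in KO, or 1.72 with an SE of 0.07 (adjusted p = 1.03e-25, edgeR).
At 24 h the order was the opposite. WT libraries held 90.1, 84.8 and 92.1 CPM in Control against 47.8, 58.1 and 51.3 CPM in LPS, and KO libraries 86.7, 89.9 and 97.6 CPM against 64.9, 50.04 and 57.8 CPM. All 6 LPS libraries lay under all 6 Controls, with log2 fold changes of -0.76 (SE 0.08, WT) and -0.67 (SE 0.08, KO). The change of the response from 2 h to 24 h was -2.26 (SE 0.11, adjusted p = 1.34e-22, edgeR) in WT and -2.39 (SE 0.11, adjusted p = 2.08e-23, edgeR) in KO on the log2 scale, where 32.6% (WT) and 33.4% (KO) of all genes were called. The fall under Control at 24 h thus followed a level that had been the highest of any group at 2 h. The summed stromal markers, whose cells can also express Jag1, were 1.30 to 2.15 CPM in WT LPS 2 h against 2.52 to 60.1 CPM in WT Control 2 h, and 3.04 to 159 CPM in KO LPS 2 h against 73.3 to 119 CPM in KO Control 2 h. Their part in the Jag1 values was not tested beyond leaving libraries out. Without the 6 libraries that held the markers above 40 CPM beside a library of their group under 10 CPM, 22 of the 28 LPS tests on the 7 genes were called. The Jag1 values were then 1.56 and 1.73 at 2 h and -0.74 and -0.76 at 24 h for WT and KO. All 9 KO Control libraries were kept, with 73.3 to 119 CPM at 2 h and 41.8 to 137 CPM at 24 h. The KO LPS libraries kept held 3.04 and 6.70 CPM at 2 h and 1.68 and 14.5 CPM at 24 h. The marker sums were thus not evened out in KO, and their part in the KO values was not tested by this fit.

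Among the other ligands, Dll1, Dll4 and Jag2 had at most 6, 5 and 7 counts in any library. Dll3 had 0 throughout, and for a count of 0 a limit of 3 counts allows up to 0.387 to 1.05 CPM in a library. None of the 4 passed the filter on low counts. Jag1 was thus the only ligand gene of the list with a level that could be tested at this depth.

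The receptors Notch1 and Notch2 are single-pass membrane proteins cut on activation. Notch1 (chr2:26457903-26516663, minus strand) was 309, 295 and 272 CPM in WT Control 2 h and 277, 292 and 263 CPM in WT LPS 2 h. In KO it was 275, 259 and 246 CPM in Control 2 h and 341, 286 and 244 CPM in LPS 2 h. These overlapped, with log2 fold changes of -0.07 (SE 0.08, adjusted p = 0.582, edgeR) and 0.15 (SE 0.08, adjusted p = 0.192, edgeR).
At 24 h the groups separated. Notch1 held 177, 153 and 173 CPM in WT Control and 263, 312 and 283 CPM in WT LPS, and 140, 148 and 160 CPM in KO Control against 292, 292 and 297 CPM in KO LPS. On the log2 scale Notch1 was higher with LPS by 0.77 in WT (SE 0.08, adjusted p = 2.82e-11, edgeR) and by 0.97 in KO (SE 0.08, adjusted p = 2.23e-14, edgeR). In CPM, the LPS 24 h level was close to that of Control 2 h, and the mean Control level went from 292 CPM at 2 h to 168 CPM at 24 h in WT and from 260 to 149 CPM in KO. The change of response between the times was 0.85 (SE 0.11) in WT and 0.82 (SE 0.12) in KO on the log2 scale, both called.

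Notch2 (chr3:98013527-98150361, plus strand) rose at both times by less. In WT at 2 h it was 405, 436 and 392 CPM in Control and 540, 524 and 506 CPM in LPS, and in KO 344, 329 and 355 CPM against 560, 552 and 491 CPM. The log2 fold change was 0.35 (SE 0.07) in WT and 0.64 (SE 0.07) in KO. At 24 h the WT libraries went from 370, 312 and 335 CPM to 391, 404 and 381 CPM and the KO libraries from 300, 312 and 311 CPM to 384, 421 and 363 CPM, with log2 fold changes of 0.21 (SE 0.07, adjusted p = 0.0122, edgeR) and 0.34 (SE 0.07, adjusted p = 9.19e-05, edgeR). The groups did not overlap in any of the 4 comparisons. The WT value at 24 h was 0.16 (adjusted p = 0.112, edgeR) without library 2 of WT Control 24 h and 0.19 (adjusted p = 0.0515, edgeR) without library 2 of WT LPS 24 h. Of the remaining receptor genes, Notch3 had at most 7 counts in any library and was not tested. Notch4 was tested, at 0 to 42 counts per library, and 1 of its 4 LPS tests was called, as lower. Its group means were 0.407 CPM in WT Control 2 h, 2.86 CPM in WT Control 24 h and 0.661 CPM in WT LPS 24 h. The highest of its group means was 4.13 CPM, in KO palmitate 24 h.

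The proteases ADAM10 and ADAM17 make the extracellular cut of the receptor, ADAM10 mainly after ligand binding. Adam10 (chr9:70678997-70780229, plus strand) was 220, 254 and 235 CPM in WT Control 2 h and 223, 225 and 230 CPM in WT LPS 2 h, which differed by -0.06 on the log2 scale (SE 0.06, adjusted p = 0.523, edgeR). In KO at 2 h it was 223, 233 and 245 CPM against 208, 206 and 203 CPM, which differed by -0.18 (SE 0.06, adjusted p = 0.0225, edgeR). That call was lost in 6 of the alternative fits. It was lost when library 3 of KO Control 2 h was left out (-0.16, adjusted p = 0.102, edgeR). Leaving out library 2 or library 3 of KO LPS 2 h also ended it (adjusted p = 0.0524 and 0.0519, edgeR).
At 24 h Adam10 fell in both genotypes. Its level went from 270, 275 and 262 CPM to 164, 187 and 164 CPM in WT and from 266, 267 and 246 CPM to 165, 159 and 148 CPM in KO. All LPS libraries lay under all Controls, with a difference on the log2 scale of -0.65 (SE 0.06, adjusted p = 6.14e-13, edgeR) in WT and of -0.72 (SE 0.06, adjusted p = 1.94e-14, edgeR) in KO.

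Adam17 (chr12:21323509-21373632, minus strand) rose in all 4 comparisons. At 2 h it was 265, 258 and 271 CPM in WT Control against 343, 343 and 307 CPM in WT LPS, and 275, 259 and 266 CPM against 377, 338 and 357 CPM in KO. At 24 h it was 246, 242 and 233 CPM against 318, 359 and 290 CPM in WT, and 229, 225 and 221 CPM against 317, 283 and 298 CPM in KO. No LPS library overlapped its Controls, and the 4 log2 fold changes lay between 0.32 and 0.42 (SE 0.06 each). The change of response from 2 h to 24 h was 0.10 (1.96 SE interval -0.08 to 0.28) in WT and -0.01 (interval -0.19 to 0.17) in KO, and was not called. An exon of Iah1 on the other strand overlaps Adam17, with 33 to 147 counts per library against 876 to 2170 for Adam17.

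Since both proteases were measured in the same library, their ratio of counts does not depend on scaling. Adam17 over Adam10 was 0.894 (range 0.879 to 0.911) in WT Control 24 h and 1.88 (1.77 to 1.93) in WT LPS 24 h. In KO it was 0.867 (0.842 to 0.899) and 1.91 (1.78 to 2.02). At 2 h the shift was less, from 1.12 (1.02 to 1.20) to 1.46 (1.33 to 1.54) in WT and from 1.14 (1.09 to 1.23) to 1.74 (1.64 to 1.82) in KO. The ratio was at least 1.33 in all 12 LPS libraries and at most 1.38 in the others, with no LPS library overlapping the Controls of its time and genotype. Jag1 over Notch1 rose and then fell, from 0.454 (0.434 to 0.486) in WT Control 2 h to 1.35 (1.29 to 1.40) in WT LPS 2 h, and from 0.532 (0.509 to 0.555) in WT Control 24 h to 0.183 (0.181 to 0.186) in WT LPS 24 h. These ratios are of counts, not scaled by exon length, and are read only between groups.

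**Figure D3:**
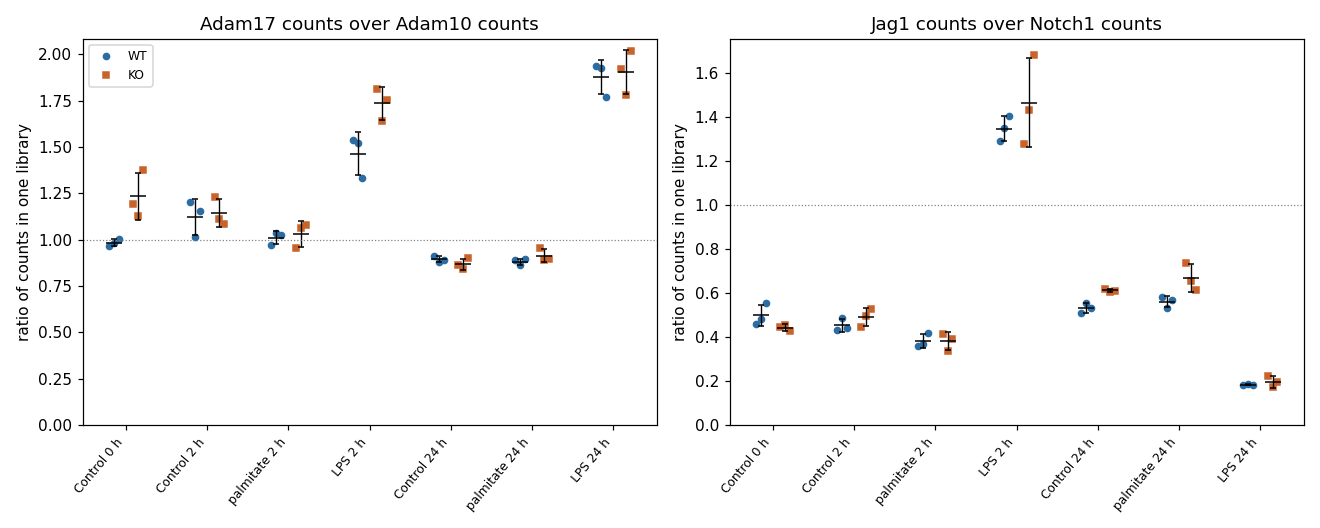
Ratio of Adam17 to Adam10 counts and of Jag1 to Notch1 counts within each library (vertical axes, starting at 0, dotted line at 1) by treatment and time, circles for WT and squares for KO, with the mean and SD of 3 libraries in black. The protease ratio is 1.88 and 1.91 at LPS 24 h against 0.894 and 0.867 in Control 24 h. The Jag1 ratio is at least 1.28 in the LPS 2 h libraries and at most 0.737 elsewhere. Counts are not scaled by exon length, so a ratio of 1 does not mark equal levels.

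In the nucleus, RBPJ binds the DNA and holds its targets silent until the receptor fragment arrives, and MAML1 bridges that complex to histone acetyltransferases. Rbpj (chr5:53466152-53657362, plus strand, a span that contains the RefSeq starts shown above) was 117, 120 and 112 CPM in WT Control 2 h and 245, 261 and 236 CPM in WT LPS 2 h. In KO it was 116, 112 and 112 CPM against 270, 259 and 265 CPM. LPS raised Rbpj at 2 h by 1.09 on the log2 scale in WT (SE 0.09, adjusted p = 1.22e-14, edgeR) and by 1.22 in KO (SE 0.09, adjusted p = 2.06e-16, edgeR), with no overlap.
At 24 h Rbpj was 118, 109 and 118 CPM in WT Control and 197, 227 and 192 CPM in WT LPS, and 100, 125 and 106 CPM against 225, 177 and 214 CPM in KO. Its log2 fold change was 0.83 (SE 0.09) in WT and 0.89 (SE 0.09) in KO, so that it remained raised. The decline of the response from 2 h to 24 h was called in KO (-0.33, SE 0.13, adjusted p = 0.0358, edgeR) and not in WT (-0.26, SE 0.13, adjusted p = 0.117, edgeR), and in KO it lost its call in 18 of the 42 fits that left out a library, with -0.22 (adjusted p = 0.219, edgeR) without library 2 of KO Control 24 h.

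Maml1 (chr11:50255634-50292311, minus strand) rose only at 2 h. It was 47.2, 52.9 and 44.7 CPM in WT Control 2 h against 63.0, 59.6 and 62.2 CPM in LPS, and 45.2, 42.6 and 41.1 CPM against 70.2, 50.04 and 57.5 CPM in KO, with log2 fold changes of 0.35 (SE 0.10, adjusted p = 0.00720, edgeR) and 0.44 (SE 0.10, adjusted p = 0.000820, edgeR). The WT value was 0.29 (adjusted p = 0.0670, edgeR) without library 3 of WT Control 2 h. At 24 h the log2 fold changes were -0.05 and -0.04 (SE 0.10 each), and the change of response was -0.40 (SE 0.14) in WT and -0.48 (SE 0.15) in KO, both called. In WT that call was lost in 7 of the 42 fits that left out a library (adjusted p up to 0.0985, edgeR) and with all genes of at least 1 count (0.0810, edgeR), and in KO without library 1 of KO LPS 2 h (-0.34, adjusted p = 0.0641, edgeR).

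Hes1, a repressor gene used as the standard read-out of Notch activity (chr16:30064384-30067796, plus strand), was close to the limit of detection. It had 0 to 16 counts per library and did not pass the filter, so it had no main test. WT Control 0 h held 0, 0 and 0 counts, WT Control 2 h 5, 10 and 5 counts, and WT LPS 2 h 0, 0 and 1 counts. KO libraries gave 2, 0 and 1 counts in Control 0 h, 3, 8 and 2 counts in Control 2 h, and 1, 1 and 0 counts in LPS 2 h. The group with the highest mean was KO palmitate 2 h with 16, 2 and 6 counts. At 24 h no library exceeded 5 counts. In WT the LPS 2 h libraries, at up to 0.186 CPM, lay under all Control 2 h libraries, while in KO the groups overlapped in CPM, with 0.380 CPM in library 1 of LPS 2 h against 0.339 CPM in library 3 of Control 2 h. Jag1 and Rbpj were at their peak in the same LPS 2 h libraries. In a fit that kept all genes with at least 1 count, the log2 fold change of Hes1 at LPS 2 h was -3.56 in WT (adjusted p = 0.0749, edgeR) and -2.07 in KO (adjusted p = 0.451, edgeR), and Control 2 h was above Control 0 h in WT (adjusted p = 0.00495, edgeR). These fitted folds rest on groups at or near 0 and depend on the prior count. Hes5, Hey2, Heyl, Nrarp and Dtx1, other genes known as Notch targets, had at most 8 counts in any library. Hey1 was tested, with group means of 3.31 CPM in WT Control 2 h against 0.584 CPM in WT LPS 2 h (adjusted p = 0.0104, edgeR) and of 2.29 CPM in KO Control 24 h against 0.174 CPM in KO LPS 24 h (adjusted p = 0.000381, edgeR). Its other LPS comparisons were also downward and not called, with log2 fold changes of -1.34 (WT, 24 h) and -1.23 (KO, 2 h).

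A list of 47 other genes of the pathway was then read in the same fits, of which 37 were tested. Over the 4 LPS comparisons they gave 65 calls of 148, 33 higher and 32 lower, in 27 genes. By comparison the calls were 13 (WT) and 12 (KO) of 37 at 2 h and 19 (WT) and 21 (KO) of 37 at 24 h, that is 35.1%, 32.4%, 51.4% and 56.8% against 23.1%, 23.9%, 39.5% and 40.9% of all genes. The median log2 fold change of the list was between -0.15 and 0.06 in the 4 comparisons.

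Of the genes acting on ligands, Mib1, a ubiquitin ligase needed for ligand activity in the sending cell, was not called at 2 h (0.10 in WT and 0.04 in KO on the log2 scale) and fell at 24 h from 234 to 153 CPM in WT and from 228 to 160 CPM in KO. Neurl1b, of the Neuralized ligases, was lower in all 4 comparisons, by -0.94 to -1.46 on the log2 scale, at group means of 1.30 to 5.91 CPM. Of the genes that modify the receptors, Lfng, a fucose-directed glycosyltransferase that alters which ligand a receptor answers, fell at 2 h from 72.6 to 38.5 CPM in WT (log2 fold change -0.90, adjusted p = 1.16e-07, edgeR) and from 68.6 to 37.8 CPM in KO (-0.88, adjusted p = 3.01e-07, edgeR). At 24 h Lfng was 0.20 and 0.24 on the log2 scale, not called. Furin, the convertase that cuts the receptor on its way to the surface, was higher in KO at 2 h (259 to 311 CPM, adjusted p = 0.00704, edgeR), was not called in WT at 2 h, and went from 217 to 121 CPM in WT and from 211 to 132 CPM in KO at 24 h.

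Subunits of gamma-secretase did not all move one way at 24 h. Psen2, a catalytic subunit, was higher by 0.47 (WT) and 0.58 (KO) on the log2 scale, and nicastrin, Ncstn, by 0.46 (WT) and 0.58 (KO), all called. Neither was called at 2 h. Copa on the other strand overlaps exons of Ncstn, and its highest count in a library was above the 1110 of Ncstn. The strand setting of the counts is not given, and the part of Copa reads in the Ncstn values was not tested. Aph1c was lower in all 4 comparisons, with -1.33 (WT) and -1.28 (KO) at 24 h. It shares most of its sequence with Aph1b, and how reads were divided between them is not given in the sources used here. Aph1b was called both higher and lower among the LPS comparisons, with its highest group mean, 13.8 CPM, in KO LPS 2 h. Aph1a was not called in any LPS comparison.

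The genes that restrain or turn over the pathway, among them the Numb and Deltex families, had 12 calls higher and 9 lower of 28. Dtx3l, a Deltex ubiquitin ligase, had the largest rise of the 37, from 98.4 to 447 CPM in WT and from 89.0 to 466 CPM in KO at 24 h, log2 fold changes of 2.18 and 2.39. Parp9 on the other strand overlaps exons of Dtx3l, with up to 1109 counts in a library against at most 3271 for Dtx3l. Dtx2 rose in all 4 comparisons, by 0.58 to 1.34 on the log2 scale. Numbl fell in all 4, by -0.69 to -1.23. Dtx4 rose at 2 h (0.38 in WT and 0.40 in KO) and fell at 24 h (-0.42 and -0.57). Among coactivators, Maml3 was lower at 24 h (-0.92 and -0.75) and Snw1 higher (0.67 and 0.65), where Maml1 had no call. Of the corepressors that RBPJ recruits, Hdac1 was higher at 24 h in both genotypes (0.51 and 0.35), and Ncor1 and Ctbp1 had no call in any LPS comparison. Spen was called both higher and lower among the LPS comparisons, with its highest group mean, 572 CPM, in WT LPS 2 h.

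**Figure D4:**
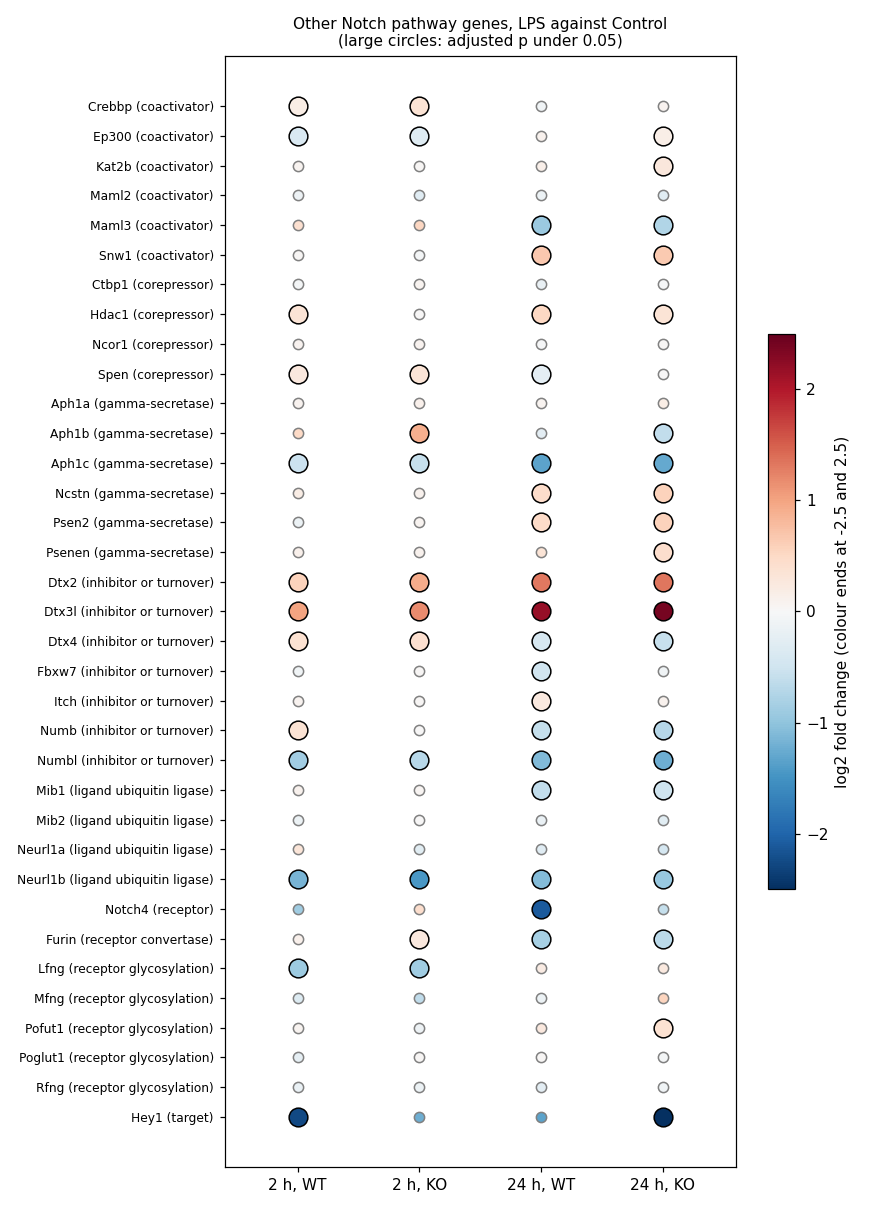
Log2 fold change of LPS over Control (colour, ending at -2.5 and 2.5) for 35 of the other pathway genes tested (vertical axis, role in brackets) in the 4 comparisons (horizontal axis), with large circles where the adjusted p was under 0.05. Dtx3l reaches 2.18 and 2.39 at 24 h, and Lfng is called lower at 2 h and not at 24 h.

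Palmitate touched the pathway little. Of 28 tests on the 7 genes, 2 were called, both Jag1 at 2 h and both lower, where 0.275% (WT) and 0.112% (KO) of all genes were called, 0.172% and 0.0344% of all genes as lower. Jag1 was 89.3, 96.0 and 101 CPM in WT palmitate 2 h, under the 120 to 144 CPM of WT Control 2 h, and 93.0, 91.9 and 96.0 CPM in KO, under the 123 to 129 CPM of KO Control 2 h. The groups did not overlap, as was so of 14.9% (WT) and 11.2% (KO) of all genes, and on the log2 scale palmitate differed from Control by -0.47 in WT (SE 0.08, adjusted p = 0.000439, edgeR) and by -0.44 in KO (SE 0.08, adjusted p = 0.00114, edgeR). The palmitate and LPS comparisons share the Control libraries. At 24 h Jag1 was at -0.06 (interval -0.22 to 0.09) and 0.01 (interval -0.14 to 0.17), with no call in either genotype, where 0.852% and 0.877% of all genes were called. The difference between the times was 0.41 (SE 0.11, adjusted p = 0.104, edgeR) in WT and 0.45 (SE 0.11, adjusted p = 0.0766, edgeR) in KO, where 0.241% and 0.172% of all genes were called. The KO value was called in 7 alternative fits and ranged from 0.41 to 0.51 over all alternatives, and the WT value was called in 1, the Wald test of DESeq2 (adjusted p = 0.0234). The stromal markers summed to 0.380 to 40.9 CPM in WT palmitate 2 h and 1.87 to 314 CPM in KO palmitate 2 h, against 2.52 to 60.1 and 73.3 to 119 CPM in the Controls. Without the 6 libraries that held these markers above 40 CPM beside a library of their group under 10 CPM, the WT value of Jag1 was -0.36 and was not called (adjusted p = 0.264, edgeR), and the KO value was -0.46 (adjusted p = 0.00332, edgeR). The KO palmitate 2 h libraries kept held 19.4 and 1.87 CPM of the markers, against 73.3 to 119 CPM in the KO Controls, all kept. The part of the markers in the KO value was thus not tested by this fit. Rbpj, also lower at 2 h without overlap, was at -0.25 (adjusted p = 0.474, edgeR) and -0.27 (adjusted p = 0.814, edgeR) and was not called. Of the 37 other genes only Dtx4 was called, higher in all 4 comparisons by 0.33 to 0.59 on the log2 scale.

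The Control cells themselves changed after 0 h, with Jag1 and Notch1 higher at 2 h in both genotypes. Over the 4 comparisons of Control 2 h or 24 h with 0 h the 7 genes gave 10 calls of 28, 7 higher and 3 lower. At 2 h, 2 were called in WT and 4 in KO, where 14.3% (8.41% higher and 5.85% lower) and 12.1% (6.50% higher and 5.59% lower) of all genes were called. At 24 h, 1 was called in WT and 3 in KO, where 12.1% (5.72% higher and 6.42% lower) and 8.17% (3.71% higher and 4.46% lower) were called. Jag1 was 72.2, 73.4 and 80.8 CPM in WT Control 0 h and 82.6, 80.8 and 81.3 CPM in KO Control 0 h, and rose by 2 h by 0.81 (SE 0.08) in WT and 0.64 (SE 0.08) in KO on the log2 scale. Notch1 was 157, 152 and 146 CPM in WT and 186, 177 and 190 CPM in KO at 0 h, and rose by 0.94 (SE 0.08) and 0.50 (SE 0.08). By 24 h Notch1 in WT Control was at 0.14 (SE 0.08, not called) above 0 h and in KO Control at -0.30 (SE 0.08, adjusted p = 0.0156, edgeR), a call lost in 4 of the 42 fits that left out a library, with adjusted p = 0.0989 (edgeR) without library 1 of KO Control 24 h. The rise of Jag1 from 0 h to 24 h in WT was 0.23 (adjusted p = 0.0457, edgeR) and was lost in 6 of the 42 fits that left out a library, for example 0.20 (adjusted p = 0.172, edgeR) without library 1 of WT Control 0 h. Of the 37 other genes, 31 of 148 tests were called, 14 higher and 17 lower.

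Between the libraries labelled KO and WT, the members were called at Control 0 h and in no other condition. Of 49 tests on the 7 genes in 7 conditions, 3 were called, all at Control 0 h, where 12.5% of all genes were called. In the other 6 conditions none of the 42 tests was called, where few genes of the whole table were. Notch2 at Control 2 h was the member whose call depended on the setting, at -0.26 here and called lower in KO with the Wald test of DESeq2 (adjusted p = 0.0456), with all genes of at least 1 count (0.0301, edgeR) and with only the compared libraries fitted (0.00615, edgeR). The whole-table shares were as follows. At 2 h these were 0.490% in Control, 0.465% in LPS and 0.146% in palmitate cells, and at 24 h 0.120% in Control, 0.146% in LPS and 0.0688% in palmitate cells. By unadjusted p, 6 of these 42 were under 0.05. At Control 0 h Rbpj was 129, 109 and 118 CPM in WT and 174, 134 and 184 CPM in KO (0.47 on the log2 scale, SE 0.09, adjusted p = 0.000246, edgeR). Notch1 was higher in KO by 0.28 (SE 0.08, adjusted p = 0.0193, edgeR), at the levels given above. Adam10 was lower, with 254, 232 and 238 CPM in WT and 204, 205 and 193 CPM in KO (-0.27, SE 0.06, adjusted p = 0.00200, edgeR). The same 3 KO libraries enter the KO comparisons over time, in which Rbpj fell from 0 h to 2 h and to 24 h (-0.54 and -0.57) and Adam10 rose (0.22 and 0.37). The Adam10 call at 2 h was lost without library 3 of KO Control 0 h (adjusted p = 0.0691, edgeR) and without library 3 of KO Control 2 h (adjusted p = 0.0795, edgeR).
The stromal marker sum was 43.1 to 70.7 CPM in KO Control 0 h and 0.905 to 1.42 CPM in WT Control 0 h, and the 6 granulocyte markers summed to 44.3 to 50.2 CPM against 26.7 to 32.9 CPM. The granulocyte sum was also higher in KO, without overlap, in the other 6 conditions, where none of the 42 tests above was called. At LPS 2 h it was 74.8 to 127 CPM in KO against 22.2 to 40.1 CPM in WT. At Control 24 h it was 73.9 to 118 CPM in KO against 27.7 to 38.5 CPM in WT. The part of the stromal and granulocyte markers in the 3 differences at Control 0 h was not tested. The Notch1 call was lost without library 3 of WT Control 0 h (0.25, adjusted p = 0.0907, edgeR) and without library 1 (adjusted p = 0.0545) or library 3 (adjusted p = 0.0744) of KO Control 0 h. Among the 37 other genes 9 of 259 tests were called, 6 of them at Control 0 h and 1 each at Control 2 h, LPS 2 h and LPS 24 h, with Spen, a corepressor of RBPJ, at 0.50 on the log2 scale (adjusted p = 1.44e-07, edgeR) at 0 h.

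No difference between the genotypes in the response to LPS or palmitate was called. None of 28 interaction tests on the 7 genes was called by edgeR, where 0.00860% of all genes were called for LPS at 24 h and 0.00% for the other 3 interactions, and 2 of the 28 had an unadjusted p under 0.05. These were Jag1 at LPS 2 h, with a response larger in KO by 0.22 (interval 0.02 to 0.42, adjusted p = 0.657, edgeR), and Notch2 at LPS 2 h, larger by 0.29 (interval 0.10 to 0.48, adjusted p = 0.444, edgeR). For Notch2 the Control 2 h libraries were at 329 to 355 CPM in KO and 392 to 436 CPM in WT. Its LPS 2 h libraries were at 491 to 560 CPM in KO and 506 to 540 CPM in WT. The intervals at LPS 24 h were -0.13 to 0.33 for Jag1, -0.03 to 0.42 for Notch1 and -0.07 to 0.32 for Notch2.

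Across the 14 group means, the members followed different courses, described here by Pearson's r of group-mean log2 CPM. Rbpj and Adam17 were closest (0.91), then Notch2 and Adam17 (0.83), and Adam10 ran opposite to Rbpj (-0.69) and Notch1 (-0.67). Jag1 was nearer to Maml1 (0.78) and Notch2 (0.73) than to Notch1 (0.34). These values describe differences between groups. Within groups, over the 42 libraries, r was 0.64 for Rbpj and Adam17 and 0.20 for Notch2 and Adam17. It was 0.16 for Adam10 and Rbpj and -0.04 for Adam10 and Notch1. For Jag1 it was -0.02 with Maml1, -0.12 with Notch2 and 0.36 with Notch1. Among the 7751 genes with a symbol and a mean of at least 10 CPM, those most like Jag1 were Phldb1 (0.982), Zhx2 (0.982) and Smarca5 (0.978), those most like Notch1 were Ifngr2 (0.964), Creb5 (0.936) and Specc1l (0.934), those most like Notch2 were Ccl7 (0.957), Vps37c (0.953) and Plpp3 (0.945), and those most like Rbpj were Nrp2 (0.982), Mtmr6 (0.976) and Ifi207 (0.970). An r above 0.9 was met by 204 genes for Jag1, 78 for Rbpj, 60 for Notch2 and 15 for Notch1, so that the course of Notch1 over these groups was the least shared of the 4.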

How the data were processed

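Whole-number read counts per gene, deposited by the authors in 1 table of 37310 Ensembl genes and 42 columns, were used as they stand. Per the labels and the study, total RNA was ribodepleted and made into stranded libraries with a pico-input kit, reads were trimmed with fastp 0.19.11 and aligned with STAR 2.7.3a, and the submitters' processing notes name builds mm10 and mm9, with mm10 named for this alignment in the study. The annotation release, the strand setting and the treatment of reads shared by paralogs are not given in the sources used here. Total RNA includes unspliced transcripts, so a count need not be mature mRNA.

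The column names give the group and no replicate number, so library numbers are column order and pair nothing. Whether the 3 libraries of a group came from separate animals is not stated by the labels, so p-values measure the spread between libraries, which may be technical. Counts were scaled by TMM and fitted in edgeR 4.0.16 (R 4.3.3) in a single quasi-likelihood model with 14 group means over all 42 libraries, after filterByExpr kept 11624 genes. Each of 27 contrasts was tested by the quasi-likelihood F test with Benjamini-Hochberg adjustment over all genes tested, with calls at adjusted p values under 0.05. Its SE is the log2 fold change divided by the square root of F, and intervals are 1.96 SE to either side. Limits from 3 counts cover counting error only. CPM per kb used merged exons of GENCODE vM21.

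The 8 genes, the 47 other pathway genes and the marker lists were chosen with earlier results of these data known. The genes named beyond the 8 were at most 4 per role, those with the smallest adjusted p over the LPS comparisons, or were named after their values were seen. Likeness was Pearson's r of group-mean log2 CPM with a prior count of 2. The B cell, T or NK cell, endothelial, dendritic and erythroid marker lists summed to at most 6.70, 2.60, 10.9, 8.69 and 0.369 CPM, and granulocyte markers to 6.78 to 127 CPM. Alternatives were RLE size factors, no filter beyond 1 count in all, a fit of just the compared libraries, DESeq2 1.42.0 (Wald test), each library left out in turn and, added after seeing the data, 6 libraries with stromal markers left out. The test was tested on simulated data, with the outcome not given here. Promoter sequences came from RefSeq. Single values of 2 of the other pathway genes are not reported here. Protein sequences were not used here, and palmitate and LPS doses are not given by the labels.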

Additional observations from a re-analysis of the deposited data

Results flagged for a closer look

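The response to LPS differed between 2 h and 24 h, by a test of the difference itself, for 4 of the 7 genes tested in WT and 6 of 7 in KO, where 32.6% and 33.4% of all genes were called. Hes1 was not tested. Values are the log2 fold change at 24 h minus that at 2 h. In WT they were -2.26 for Jag1, 0.85 for Notch1, -0.58 for Adam10 and -0.40 for Maml1. In KO they were -2.39 for Jag1, 0.82 for Notch1, -0.54 for Adam10, -0.48 for Maml1, -0.30 for Notch2 and -0.33 for Rbpj. The values for Maml1 in WT, Notch2 in KO and Rbpj in KO lost their call in 7, 4 and 18 of the 42 fits that left out a library, and Maml1 in KO in 1. Jag1, Notch1 and Adam10 kept theirs in both genotypes in all 42. Whether the change between times differed between the genotypes was not tested.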

How the results depend on the processing

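No paired analysis was possible because the columns carry no replicate numbers. With each library left out in turn, the members' calls were 22 to 23 for LPS, 2 for palmitate, 8 to 12 for Control over time, 7 to 11 for the change of response, 2 to 3 for KO against WT and 0 for the interaction, and those of the 37 other genes 60 to 66, 2 to 4, 25 to 32, 32 to 36, 5 to 10 and 0. The lowest value of 2 for palmitate in the other genes came from 7 different libraries, each ending calls of Dtx4, and that of 5 for KO against WT from library 3 of WT Control 0 h. The latter count was also 5 against 9 when only the libraries compared were fitted. Leaving out the 6 libraries high in stromal markers kept all KO Control libraries, which were also above 40 CPM. In that fit, palmitate gave 1 call against 2 in the members and 2 against 4 in the other genes. KO against WT gave 5 against 9 in the other genes, and fewer samples were fitted. The cause of these changes was not tested. Of 189 pairs of a member and a comparison, 57 were called in at least 1 setting, and none of these changed direction. Sign changes came only in the 132 pairs that no setting called. Hes1 had at most 16 counts in a library, so its groups could not be told apart with precision at this depth.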
